A study of Homo sapiens with 12 samples.

Results

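The motile cilium genes examined here were 78 of the 48114 genes listed for 2 human pancreatic ductal adenocarcinoma (PDAC) cell lines. They were chosen by name: every gene called DNAH, DNAI, CFAP or TEKT followed by a number, every RSPH gene, and FOXJ1, RFX2, RFX3, HYDIN, SPEF2 and MDH1B. PANC-1, a line used as a model of the basal-like PDAC subtype, was transfected with a control siRNA (siCtrl), with siRNA against the RNA-binding protein QKI (siQKI) or with siRNA against the RNA-binding protein RBFOX2 (siRBFOX2). The siRNAs against QKI and RBFOX2 were given at 40 nM, and cells were collected after 48 h. HPAF-II, a line used for the classical subtype, received siCtrl for 48 h. Each of the 4 groups held 3 libraries of poly(A) RNA described as biological replicates, no genotype was changed, and every group, controls included, was transfected. Each knockdown was transient and made in 1 established line, and a difference between PANC-1 and HPAF-II is a difference between 2 lines and not between subtypes.

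A motile cilium beats through its axoneme, a ring of doublet microtubules around a central pair. Outer and inner dynein arms are the motors, radial spokes pass signals from the central apparatus to the arms, and a group of proteins lines the inside of the doublets. In multiciliated epithelium the forkhead factor FOXJ1 and the RFX factors RFX2 and RFX3 switch these genes on, and the RFX factors bind a promoter element called the X-box. Normal pancreatic duct cells carry a single primary cilium, which shares part of this machinery. Both proteins knocked down here act mainly in RNA processing.

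Values are normalized counts, that is, gene counts divided by a size factor for each library. They were set for the 9 PANC-1 libraries together and for the 3 HPAF-II libraries apart. A value of 1 is not 1 sequenced fragment, so the depth in fragments behind a value is unknown. Library totals ran from 321833858 to 348181159 normalized counts for PANC-1, and for HPAF-II from 279777377 to 287232882. QKI fell from 25533 ± 869 (SD, n = 3) in siCtrl to 5034 ± 412 in siQKI, and RBFOX2 from 15429 ± 76.8 to 2095 ± 352 in siRBFOX2, so each targeted gene was low in the libraries labelled for it. RBFOX2 was also slightly lower in siQKI, at 12642 ± 129 (log2 fold change -0.29 ± 0.09 SE, limma adjusted p = 0.0207). QKI in siRBFOX2, at 28016 ± 1149, did not pass (limma adjusted p = 0.105). Keratins KRT8, KRT18 and KRT19 were abundant in both lines, while the duct channel CFTR was above 0 in 1 library alone, at 18.2.

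Promoter sequence was not used by the rule. RefSeq (GRCh38.p14) gave 79 promoter windows of 300 bases, from 250 before to 50 after a transcript start, for 65 of the 78 members. The sequence GTTGCC, which is part of an X-box and not a whole one, was searched on either strand. It was in 36 of these 79 windows (45.6%) and in 4279 of all 35116 windows (12.2%). The forkhead motif GTAAACA, on either strand, was in 4 member windows (5.06%) and in 3.42% of all windows. Windows of members that were higher in siQKI held GTTGCC in 4 of 15 cases (26.7%), and those of the other members tested in 25 of 50 (50%). These matches are descriptions of letters, not of bound sites. Printed 5′ to 3′, with the core or its reverse complement in capitals, are 3 members higher in siQKI that hold it (MDH1B, chr2:206765279-206765578, minus strand; DNAH1, chr3:52316069-52316368, plus strand; CFAP251, chr12:121918342-121918641, plus strand), 1 member lower in siRBFOX2 that holds it (CFAP210, chr2:169694356-169694655, minus strand) and 1 member higher in siQKI without it (CFAP206, chr6:87407722-87408021, plus strand). They were chosen after their values were seen. DNAH1 held 3 cores, CFAP251 held 2, and MDH1B and CFAP210 held 1 each.
MDH1B: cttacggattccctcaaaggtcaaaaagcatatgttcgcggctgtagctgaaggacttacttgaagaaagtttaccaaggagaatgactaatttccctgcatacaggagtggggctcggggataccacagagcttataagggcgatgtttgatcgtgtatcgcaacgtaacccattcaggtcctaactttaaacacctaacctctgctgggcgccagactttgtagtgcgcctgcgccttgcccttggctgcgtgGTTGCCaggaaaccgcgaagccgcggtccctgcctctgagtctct
DNAH1: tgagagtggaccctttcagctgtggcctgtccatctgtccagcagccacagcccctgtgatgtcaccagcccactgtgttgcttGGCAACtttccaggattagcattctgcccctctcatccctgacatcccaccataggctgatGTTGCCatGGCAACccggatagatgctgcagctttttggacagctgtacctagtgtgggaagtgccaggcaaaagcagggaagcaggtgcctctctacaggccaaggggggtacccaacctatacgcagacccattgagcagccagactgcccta
CFAP251: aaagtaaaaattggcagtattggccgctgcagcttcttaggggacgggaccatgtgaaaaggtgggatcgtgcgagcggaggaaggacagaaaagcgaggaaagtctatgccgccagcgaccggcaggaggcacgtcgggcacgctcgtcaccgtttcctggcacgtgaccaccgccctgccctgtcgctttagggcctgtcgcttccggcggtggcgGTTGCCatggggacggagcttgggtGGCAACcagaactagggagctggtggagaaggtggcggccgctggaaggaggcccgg
CFAP210: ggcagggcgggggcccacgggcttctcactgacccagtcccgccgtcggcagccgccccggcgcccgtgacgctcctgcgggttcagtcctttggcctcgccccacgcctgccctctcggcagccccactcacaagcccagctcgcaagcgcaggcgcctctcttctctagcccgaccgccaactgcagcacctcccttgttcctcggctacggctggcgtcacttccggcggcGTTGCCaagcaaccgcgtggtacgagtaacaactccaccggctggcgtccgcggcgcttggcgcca
CFAP206: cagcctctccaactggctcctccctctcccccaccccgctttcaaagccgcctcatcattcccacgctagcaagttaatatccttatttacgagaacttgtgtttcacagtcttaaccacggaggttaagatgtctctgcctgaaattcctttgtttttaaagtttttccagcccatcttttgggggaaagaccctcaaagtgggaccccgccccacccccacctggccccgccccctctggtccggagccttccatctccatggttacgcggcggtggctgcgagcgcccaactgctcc

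In PANC-1 cells given the control siRNA most members were low. The siCtrl mean was under 100 normalized counts in 43 members, from 100 to 1000 in 26, from 1000 to 10000 in 6 and at least 10000 in 3. The siCtrl median was 75.6 over all members and 108 over the 66 that passed the filter of a mean of at least 10 over the 9 PANC-1 libraries, against 851 over all 22544 genes that passed. The 12 members under the filter were not tested, and 3 members were at 0 in every PANC-1 library. Per 1000 bases of exon and per 1000000 of the library total, the highest levels in PANC-1 siCtrl belonged to CFAP20 at 23.6, CFAP298 at 14.3, CFAP97 at 8.56 and CFAP36 at 6.42. CFAP20 sits at the inner junction of the doublet and is also found in non-motile cilia. Some motor genes were at the other end: DNAH8 and the ciliary outer arm gene DNAH9 had no siCtrl value above 2, and CFAP107 was at 0 in all 12 libraries.

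Depletion of QKI raised axoneme genes more often than it lowered them. Of the 66 members tested, 17 were higher and 4 lower in siQKI than in siCtrl at a limma adjusted p under 0.05, with the adjustment over all genes tested. That is 25.8% higher against 14.9% of all genes, and 6.06% lower against 18.1% of all genes. The share called in either direction, 31.8%, was close to the 33.0% of all genes. The median log2 fold change was 0.54 over the members tested and 0.03 over all genes, and 46 of 66 members had a positive value. All folds here and below compare bulk RNA, in which more cells with a transcript and more transcript per cell cannot be told apart. By position in the axoneme, 6 of 12 radial spoke genes and 3 of 7 central apparatus genes were higher. So were 4 of 15 inner arm genes and 2 of 4 outer arm genes, and no gene of these groups was lower. CFAP221, of the central apparatus, was at 0 in siCtrl and passed the filter only through the knockdown libraries. Of 12 genes for proteins inside the doublets 0 were higher and 3 were lower. Several of those 12 were near the floor, where a rise could be missed. TEKT2, TEKT5, CFAP141 and CFAP52 had siCtrl means of 9.85 to 14.4 and siQKI standard errors of 1.16 to 1.48. The doublet genes PIERCE1 and PIERCE2, outside the rule, were higher in siQKI.

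Depletion of RBFOX2 gave a more even split. In siRBFOX2, 8 of 66 members were higher (12.1%, against 12.0% of all genes) and 5 were lower (7.58%, against 14.5%). The share called, 19.7%, was below the 26.5% of all genes, and the median log2 fold change was 0.27 against 0.01. Because siQKI and siRBFOX2 were set against the same 3 siCtrl libraries, their changes are not independent, and the values are given side by side.

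**Figure D1:**
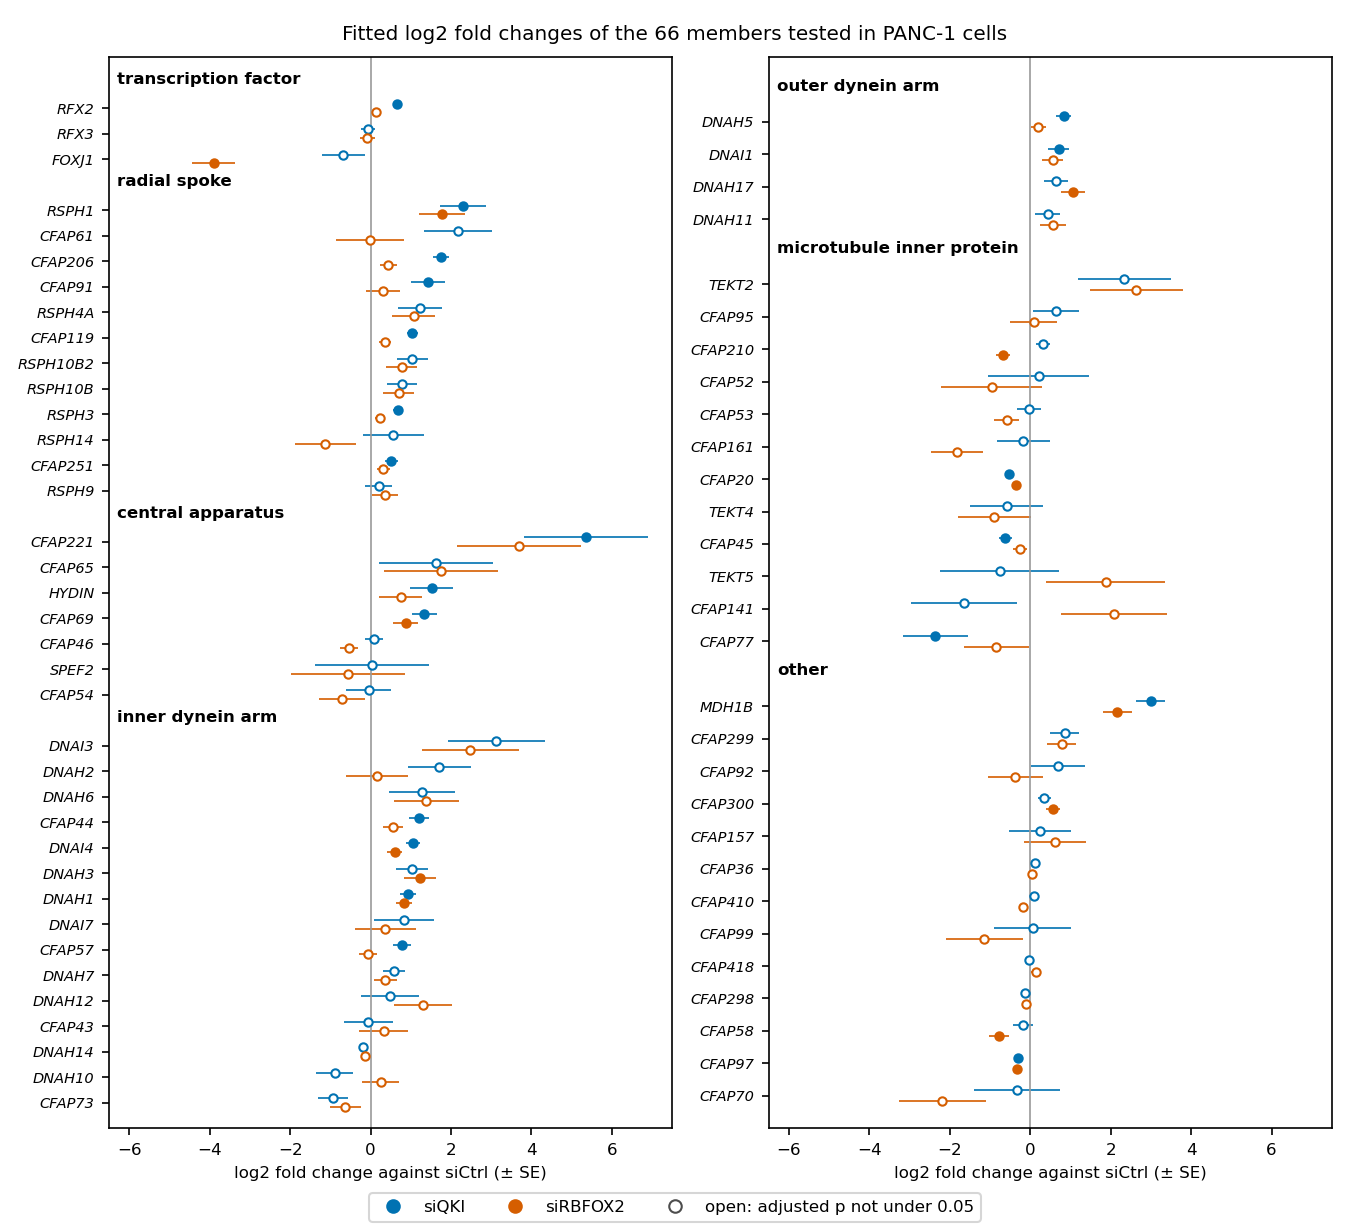
Fitted log2 fold changes against siCtrl (x axis, ± standard error) for the 66 members tested, grouped by place in the axoneme, with siQKI in blue and siRBFOX2 in orange; filled points passed an adjusted p of 0.05. Radial spoke genes lie to the right of 0 in siQKI, and FOXJ1 at -3.90 in siRBFOX2 is the lowest point.

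The 3 transcription factors behaved differently from each other. FOXJ1 (chr17:76136333-76141290, minus strand), the master regulator of motile cilia, measured 679, 444 and 435 normalized counts in the siCtrl libraries, 324, 234 and 423 in siQKI and 82, 41.6 and 10.2 in siRBFOX2. Every siRBFOX2 library was far below every other library, and the 3 siQKI libraries lay below the lowest siCtrl library. In siRBFOX2 the level was 8.6% of the control (log2 fold change -3.90 ± 0.53 SE, adjusted p = 6.96e-05), and the call held in every alternative run. The siQKI value, -0.68 ± 0.53, did not pass (adjusted p = 0.378), although it did when only the groups compared were fitted (adjusted p = 0.0473). Between the knockdowns FOXJ1 was 3.22 higher on the log2 scale in siQKI (adjusted p = 0.000411).

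RFX2 (chr19:5993164-6110564, minus strand) showed the tightest rise in siQKI. Its libraries read 1568, 1438 and 1551 in siCtrl, 2284, 2440 and 2416 in siQKI and 1668, 1749 and 1558 in siRBFOX2. The siQKI libraries stood apart from all others, and those of siRBFOX2 overlapped the controls. The change was 1.57-fold in siQKI (0.65 ± 0.08, adjusted p = 2.52e-05) and 0.13 ± 0.08 in siRBFOX2 (adjusted p = 0.316), and the 2 knockdowns differed by 0.52 (adjusted p = 0.000331). RFX2 overlaps RANBP3-DT, and the strand of counting is not stated. RFX3, its close relative, ranged from 814 to 886 in siCtrl, 677 to 1034 in siQKI and 644 to 994 in siRBFOX2, with differences of -0.06 ± 0.18 and -0.08 ± 0.18 that did not pass.

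**Figure D2:**
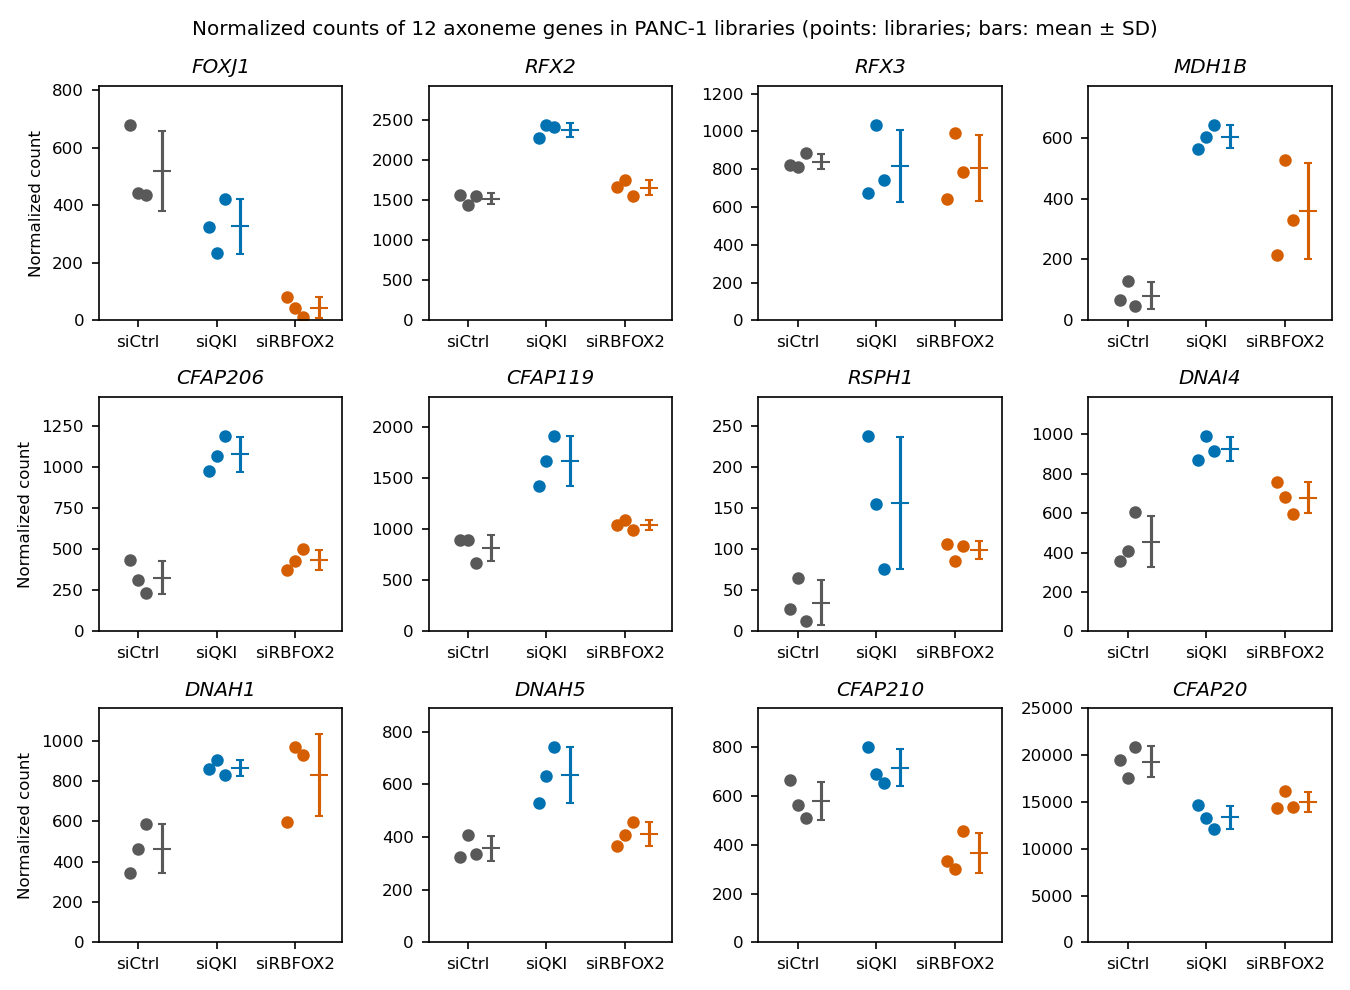
Normalized counts (y axis, linear from 0) of 12 members in the 9 PANC-1 libraries, with 1 point per library and the mean ± SD beside each group of 3. FOXJ1 is lowest in siRBFOX2 (10.2 to 82), while CFAP206, CFAP119 and RFX2 are highest in siQKI.

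Radial spoke genes accounted for 6 of the 17 members higher in siQKI. CFAP206 (chr6:87407972-87464465, plus strand), a protein at the base of the spokes, measured 436, 312 and 235 in siCtrl, 976, 1067 and 1189 in siQKI and 374, 429 and 499 in siRBFOX2. Only the siQKI libraries stood apart. It was 3.29-fold higher in siQKI (1.75 ± 0.21, adjusted p = 9.45e-06), did not pass in siRBFOX2 (0.44 ± 0.21, adjusted p = 0.137) and was 1.31 higher in siQKI than in siRBFOX2 (adjusted p = 0.000259). Without siCtrl replicate 1 the siRBFOX2 value passed, at 0.67.

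RSPH1 (chr21:42472486-42496354, minus strand), a component of the spoke head, was low: 27.8, 65 and 12.1 in siCtrl, 238, 155 and 76.5 in siQKI and 106, 86.2 and 104 in siRBFOX2. All 6 knockdown libraries exceeded every control library. The fold was 4.49 in siQKI (2.29 ± 0.57, adjusted p = 0.00565) and 2.83 in siRBFOX2 (1.77 ± 0.57, adjusted p = 0.0317). The siRBFOX2 call was lost without siCtrl replicate 1 or 3 and without each siRBFOX2 library, with values of 1.19 to 2.36, and the gene overlaps SLC37A1.

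RSPH3, of the spoke stalk, rose from 911 ± 139 to 1451 ± 112 in siQKI (0.68 ± 0.12, adjusted p = 0.000455) and read 1067 ± 60.4 in siRBFOX2. CFAP91 and CFAP251, which belong to the calmodulin- and spoke-associated complex, rose 2.69-fold (1.42 ± 0.42, adjusted p = 0.0167) and 1.41-fold (0.51 ± 0.16, adjusted p = 0.0253) in siQKI. Both calls were lost without siQKI replicate 2, that of CFAP91 also without siCtrl replicate 1 and that of CFAP251 also without siCtrl replicate 2, and with 1 library left out the values ran from 1.30 to 1.54 for CFAP91 and from 0.33 to 0.63 for CFAP251. CFAP119 rose from 816 ± 130 to 1669 ± 242 (1.04 ± 0.14, adjusted p = 3.1e-05) and was 0.67 higher than in siRBFOX2 (adjusted p = 0.00224). It lies across PHKG2, RNF40 and MAPK3, so its reads may be shared with them.
Spoke head genes that did not pass in either knockdown included RSPH9, with 370 ± 201 in siCtrl and 389 ± 98.4 in siQKI, and RSPH4A, at 1.23 ± 0.54 in siQKI. RSPH10B and RSPH10B2, which are near-identical copies and may share reads, were at 0.78 ± 0.38 and 1.04 ± 0.39 in siQKI and did not pass.

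Among the inner dynein arm genes, DNAI4 and DNAH1 rose in both knockdowns. DNAI4, an intermediate chain of the inner arm, read 358, 406 and 605 in siCtrl, 868, 992 and 917 in siQKI and 759, 681 and 598 in siRBFOX2. The siQKI libraries stood clear of the controls, and 1 siRBFOX2 library lay within them. The changes were 1.05 ± 0.18 (adjusted p = 0.000318) and 0.60 ± 0.18 (adjusted p = 0.0217), and the siRBFOX2 call was lost without siCtrl replicate 1 or 2 or siRBFOX2 replicate 1 or 2 (0.45 to 0.83). DNAH1, a heavy chain motor, rose 1.86-fold in siQKI (0.93 ± 0.20, adjusted p = 0.00233) and 1.79-fold in siRBFOX2 (0.84 ± 0.20, adjusted p = 0.00625). CFAP44, which tethers an inner arm, rose in siQKI from 165 ± 15 to 387 ± 79 (1.21 ± 0.25, adjusted p = 0.0013), and its 246 ± 54.9 in siRBFOX2 did not pass (adjusted p = 0.117).

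CFAP57, needed for inner arm assembly, was 0.79 ± 0.22 higher in siQKI (adjusted p = 0.0128) and 0.86 higher in siQKI than in siRBFOX2 (adjusted p = 0.0113), but it overlaps EBNA1BP2 and 1 control library reached 646, above the lowest siQKI library at 636. The first call was lost without siCtrl replicate 1 or 2 or siQKI replicate 2 (0.61 to 1.08), and the second without siQKI replicate 2 (0.73 to 0.96). DNAH3, another heavy chain, passed in siRBFOX2 (1.23 ± 0.40, adjusted p = 0.0341) and not in siQKI (1.02 ± 0.40, adjusted p = 0.0659). That call was lost without siCtrl replicate 3 or siRBFOX2 replicate 1 or 2 (0.93 to 1.47), and the gene overlaps LDAF1. DNAH14, the most abundant DNAH gene in PANC-1 at 3803 ± 225 in siCtrl, read 3344 ± 75.6 and 3437 ± 313 in the knockdowns, and neither passed.

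Of 4 outer arm genes tested, 2 were higher in siQKI and 1 in siRBFOX2. DNAH5, a heavy chain whose loss is a known cause of primary ciliary dyskinesia, measured 323, 409 and 337 in siCtrl, 530, 632 and 741 in siQKI and 366, 408 and 457 in siRBFOX2. It rose 1.78-fold in siQKI (0.83 ± 0.18, adjusted p = 0.00218) and did not pass in siRBFOX2 (0.20 ± 0.18, adjusted p = 0.463). The difference between the knockdowns, 0.62, passed (adjusted p = 0.0215) but was lost without siQKI replicate 2 or 3 or siRBFOX2 replicate 1 (0.50 to 0.74).
DNAI1, an outer arm intermediate chain, rose in siQKI from 398 ± 103 to 646 ± 149 (0.71 ± 0.26, adjusted p = 0.0463). In siRBFOX2 it did not pass (0.56 ± 0.26, adjusted p = 0.133), nor did the difference between the knockdowns, 0.15 (adjusted p = 0.757). The siQKI call of DNAI1 was lost in 8 of 17 alternatives, among them without siCtrl replicate 2, without siQKI replicate 1 or 2 and without siRBFOX2 replicate 2 (0.47 to 0.91). DNAH17, an outer arm heavy chain known from sperm, passed in siRBFOX2 (1.06 ± 0.30, adjusted p = 0.0154), and lost the call without siCtrl replicate 2 or siRBFOX2 replicate 3 (0.72 to 1.25). In siQKI DNAH17 did not pass (0.64 ± 0.30, adjusted p = 0.117), nor did the difference between the knockdowns, -0.42 (adjusted p = 0.382). DNAH17 overlaps PGS1 and DNAH17-AS1.

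Of the central apparatus genes, CFAP69 moved in both knockdowns. It read 211, 107 and 233 in siCtrl, 315, 521 and 518 in siQKI and 241, 368 and 374 in siRBFOX2, so both groups lay above the controls. The changes were 1.33 ± 0.31 in siQKI (adjusted p = 0.00343) and 0.88 ± 0.31 in siRBFOX2 (adjusted p = 0.0467), and the second was lost in 9 of 17 alternatives, among them without siCtrl replicate 2, siQKI replicate 2 or 3 or siRBFOX2 replicate 2 or 3 (0.53 to 1.09). HYDIN, a giant protein of the central pair, read 50.7, 61 and 49.3 in siCtrl and 293, 102 and 126 in siQKI (1.52 ± 0.54, adjusted p = 0.0431). It lost the call without any 1 siCtrl library and without siQKI replicate 1 or 3 (1.07 to 1.83), and its copy HYDIN2 may share reads. In siRBFOX2 HYDIN did not pass (0.75 ± 0.54, adjusted p = 0.362), nor did the difference between the knockdowns, 0.78 (adjusted p = 0.372).

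CFAP221, another central pair protein, was listed at 0 in all 3 siCtrl libraries, at 10.3, 107 and 55.6 in siQKI (adjusted p = 0.0142) and at 83.1, 0 and 25 in siRBFOX2 (adjusted p = 0.0957). No fold is given against a group at 0, and the siQKI call was lost without siQKI replicate 2 or 3. CFAP221 passed the filter only through the knockdown libraries, so no fall could have been called. It is counted among the 17 members higher in siQKI. SPEF2 was near the filter throughout, with 17.2, 8 and 19.1 in siCtrl and 62.7, 54.1 and 0 in siQKI, and its change of 0.03 ± 1.42 cannot be told from none or from a large one at this level.

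Of the 12 members tested that encode proteins inside the doublets, none was called higher in either knockdown, and several were too low for a rise to be seen. CFAP20 (chr16:58113592-58129381, minus strand) fell in both knockdowns, from 19438, 17580 and 20864 in siCtrl to 14637, 13274 and 12115 in siQKI (-0.53 ± 0.07, adjusted p = 4.69e-05) and 14375, 16216 and 14460 in siRBFOX2 (-0.36 ± 0.07, adjusted p = 0.00192). None of the 6 knockdown libraries reached the lowest control. CFAP45 fell in siQKI from 1008 ± 77.7 to 663 ± 127 (-0.62 ± 0.17, adjusted p = 0.0125), and lost the call without siCtrl replicate 3 or siQKI replicate 1 or 3 (-0.77 to -0.53).
CFAP77, of the outer junction, fell from 33.2 ± 7.05 to 6.03 ± 3.09 (-2.36 ± 0.81, adjusted p = 0.0364), a low level at which the call was lost without any 1 siCtrl library and without siQKI replicate 1 or 2 (-2.69 to -2.07). CFAP210 (chr2:169645425-169694405, minus strand) read 665, 563 and 512 in siCtrl, 801, 692 and 654 in siQKI and 335, 303 and 458 in siRBFOX2. It fell in siRBFOX2 (-0.68 ± 0.18, adjusted p = 0.0112), a call lost without siCtrl replicate 1 (values of -0.85 to -0.55), did not pass in siQKI (0.31 ± 0.18, adjusted p = 0.227) and was 0.98 higher in siQKI than in siRBFOX2 (adjusted p = 0.000984). The tektins, which form filaments within the doublet wall, were low in siCtrl, where TEKT4 averaged 19.6, TEKT5 14.4 and TEKT2 10.6. TEKT2 averaged 35.8 in siQKI (2.34 ± 1.16, adjusted p = 0.146) and 43.6 in siRBFOX2 (2.64 ± 1.16, adjusted p = 0.115), and none of the 3 passed in either knockdown.

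MDH1B (chr2:206734218-206765547, minus strand), a relative of cytosolic malate dehydrogenase with no place assigned here in the axoneme, gave the steepest rise that passed among members above 0 in every siCtrl library. It read 66.1, 130 and 47.3 in siCtrl, 564, 603 and 641 in siQKI and 215, 527 and 331 in siRBFOX2. All knockdown libraries exceeded the highest control. The folds were 7.43 in siQKI (3.00 ± 0.36, adjusted p = 1.13e-05) and 4.41 in siRBFOX2 (2.16 ± 0.36, adjusted p = 0.000371), and the difference between them, 0.85, did not pass (adjusted p = 0.114).
CFAP97, among the most abundant members, fell slightly in both, from 21183 ± 169 to 17211 ± 867 in siQKI (-0.30 ± 0.05, adjusted p = 0.00014) and 16700 ± 697 in siRBFOX2 (-0.34 ± 0.05, adjusted p = 7e-05). In siRBFOX2, CFAP300, a factor in dynein arm assembly, rose from 816 ± 79.2 to 1218 ± 255 (0.56 ± 0.17, adjusted p = 0.0265), and CFAP58 fell from 696 ± 126 to 427 ± 161 (-0.77 ± 0.25, adjusted p = 0.0363). The first call was lost without siCtrl replicate 1 or 3 or siRBFOX2 replicate 1 or 3 (0.41 to 0.72) and the second without siCtrl replicate 1 or 2 or siRBFOX2 replicate 1 (-0.99 to -0.41). CFAP58 overlaps CFAP58-DT.

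Set directly against each other, the knockdowns differed in 8 of 66 members (12.1%, against 21.5% of all genes), and all 8 were higher in siQKI (against 9.93% of all genes higher and 11.6% lower). They were FOXJ1, CFAP206, CFAP210, CFAP57, CFAP119, DNAH5, RFX2 and RSPH3, the last at 0.44 (adjusted p = 0.0161), a call lost without siQKI replicate 2 or siRBFOX2 replicate 1 (0.38 to 0.49). Without siRBFOX2 replicate 2 the count was 13. Other members called in 1 knockdown alone did not pass between the knockdowns, so their calls do not show a difference between the 2.

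The neighbouring parts of the cilium were described with 4 lists of genes outside the rule. Of 35 further axonemal genes tested, 13 rose and 1 fell in siQKI (all genes: 14.9% and 18.1%). Their median log2 fold change there was 0.54 against 0.03 for all genes. In siRBFOX2 4 rose and 1 fell (all genes: 12.0% and 14.5%), with a median of 0.15 against 0.01. In siQKI the steepest rises were PIERCE1 (1.22 ± 0.31, adjusted p = 0.00658) and PIERCE2 (1.11 ± 0.29, adjusted p = 0.0085), which lie inside the doublet and help to dock outer arms, and the spoke protein ROPN1L (0.98 ± 0.17, adjusted p = 0.000435). In siRBFOX2 they were DYNLT2 (1.31 ± 0.29, adjusted p = 0.003), the light chain DNAL1 (0.28) and STK36 (0.27). NME7 was the gene that fell, by 0.46 in siQKI and by 0.52 in siRBFOX2 on the log2 scale.

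Of 19 dynein assembly factors tested, 8 rose and 4 fell in siQKI (all genes: 14.9% and 18.1%). In siRBFOX2 5 rose and 5 fell (all genes: 12.0% and 14.5%). The rises in siQKI were led by DNAAF11 (1.40 ± 0.49, adjusted p = 0.0389), ZMYND10 (1.15 ± 0.19, adjusted p = 0.000233) and LRRC56 (1.04 ± 0.12, adjusted p = 9.43e-06), factors tied to motile cilia. ZMYND10 read 338, 300 and 345 in siCtrl and 626, 667 and 915 in siQKI. The falls in siQKI were PIH1D1 (-0.53), SPAG1 (-0.27) and DNAAF2 (-0.20) among those furthest from 0. PIH1D1 and the chaperone ATPases RUVBL1 and RUVBL2, which also serve other complexes, fell in siRBFOX2, by 0.43, 0.30 and 0.31, while LRRC56 (0.50), TTC12 (0.46) and DNAAF4 (0.43) rose there.

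Regulators of the multiciliated programme and of centriole number were split in siQKI (6 of 22 higher and 6 lower). In siRBFOX2 they were lower more often (3 higher and 10 lower). Over all genes 14.9% were higher and 18.1% lower in siQKI, and 12.0% and 14.5% in siRBFOX2. TP73 (0.59 ± 0.18) and CCNO (0.53 ± 0.09), both used in multiciliated cells, and RFX5 (0.40), an activator of MHC class II genes, led the rises in siQKI. E2F4 (-0.50), SASS6 (-0.30) and GMNN (-0.28) led the falls there. In siRBFOX2 the leading rises were RFX5 (0.54), E2F5 (0.40) and CCNO (0.33) and the leading falls GMNN (-0.45), SASS6 (-0.40) and TFDP1 (-0.32), genes that also act in the cell cycle. The proliferation markers MKI67 (-0.30, adjusted p = 3.86e-05) and TOP2A (-0.16, adjusted p = 0.0129) were lower in siRBFOX2 as well, TOP2A was also lower in siQKI (-0.13, adjusted p = 0.032) while MKI67 did not pass there (-0.09, adjusted p = 0.105), and their part in these changes was not tested.

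Of 56 intraflagellar transport and primary cilium genes tested, 5 rose and 7 fell in siRBFOX2 (all genes: 12.0% and 14.5%). In siQKI 28 rose and 9 fell (all genes: 14.9% and 18.1%). TTC8, a BBSome subunit (0.71 ± 0.08, adjusted p = 9.64e-06), the transport gene TTC30B (0.68 ± 0.15, adjusted p = 0.00209), whose near copy TTC30A may share reads, and the chaperonin-like BBS12 (0.64 ± 0.13, adjusted p = 0.00165) led the rises. IFT46 (-0.76) and MKS1 (-0.74) were among the genes that fell. In siRBFOX2 the leading rises were BBS5 (0.45), BBS1 (0.42) and INPP5E (0.41), and IFT27 (-0.35) and IFT57 (-0.31) were among the genes that fell. The list median was 0.28 in siQKI and 0.03 in siRBFOX2, against 0.54 and 0.27 for the members tested.

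**Figure D3:**
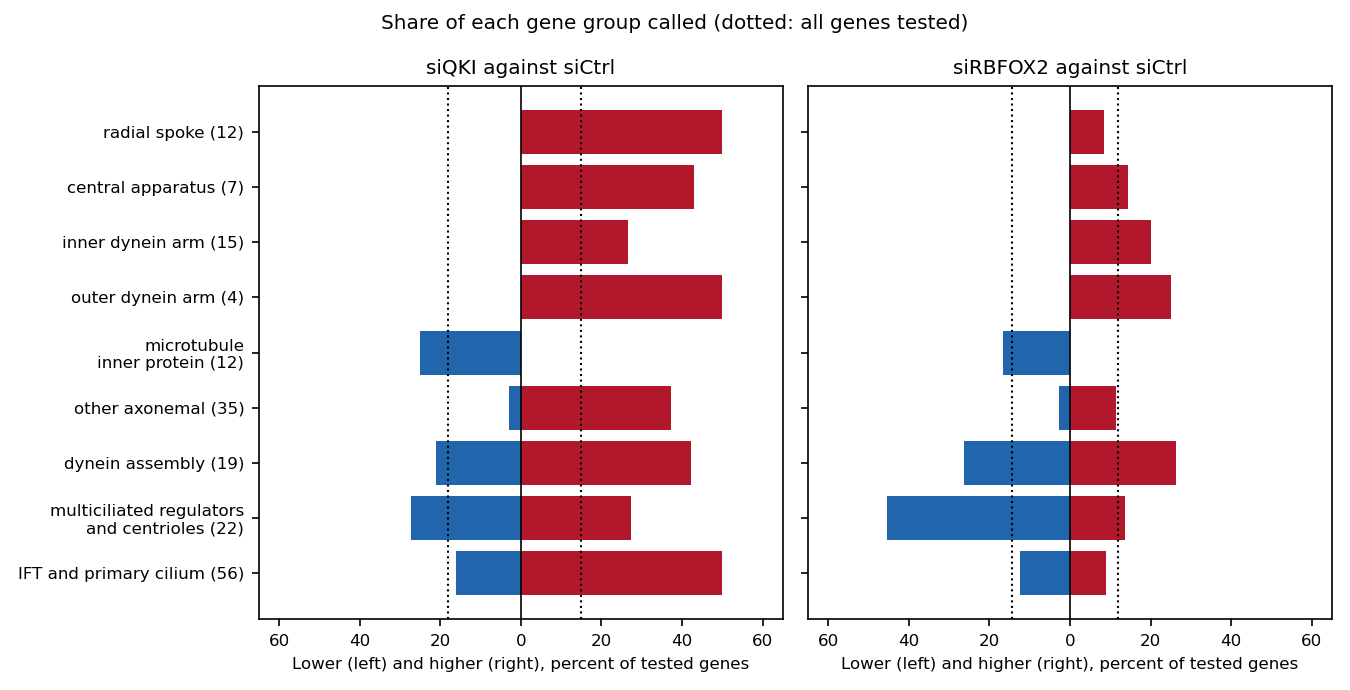
Percent of tested genes called lower (blue, left) and higher (red, right) in each knockdown for the axonemal groups of the members and for the 4 neighbouring lists, with the number tested in brackets and dotted lines at the shares of all genes (14.9% higher and 18.1% lower in siQKI, 12.0% and 14.5% in siRBFOX2). In siQKI 6 of 12 radial spoke genes and 28 of 56 transport and primary cilium genes were higher.

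Markers of other cells were read beside these results. Of 13 multiciliated cell markers matched, which include the member HYDIN and 3 genes of the lists above, 9 were tested, 4 were higher in siQKI (TMEM190, LRRIQ1, ZMYND10 and HYDIN) and 1 in siRBFOX2 (LRRIQ1), and none was lower. The summed level of the 13 was 2000 to 2245 in siCtrl, 2776 to 3794 in siQKI and 2444 to 2834 in siRBFOX2. The defining markers SNTN and C20orf85 were at 0 in all 9 PANC-1 libraries. Of 5 sperm markers, ODF1 was at 24 in 1 siCtrl library and AKAP4 at 9.12 in 1 siQKI library, and all other PANC-1 values were 0. Of 8 ductal and epithelial markers tested, 2 were higher and 2 lower in siQKI, and 1 was higher and 4 lower in siRBFOX2. Over all genes 14.9% were higher and 18.1% lower in siQKI, and 12.0% and 14.5% in siRBFOX2. The median log2 fold change of these markers was 0.03 in siQKI and -0.19 in siRBFOX2. Among them the epithelial cadherin CDH1 was higher in siQKI (1.39 ± 0.11, adjusted p = 1.54e-07). It was also the 1 marker of this list higher in siRBFOX2 (0.53 ± 0.11, adjusted p = 0.00177). Of 4 mesenchymal markers tested, 1 was higher and 2 lower in siQKI, and 1 was higher and 0 lower in siRBFOX2. The link of CDH1 to the members' changes was not tested.

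The control libraries of the 2 lines were compared last. They were normalized apart, so every library was first scaled to sum to 1000000, and the log2 ratio of group means was taken after adding 0.01, with no test. Of 69 members with a mean of at least 10 in either line, 43 were at least 2-fold apart (62.3%, against 52.4% of all 24673 genes compared). Members and all genes alike could pass this filter through 1 line alone, and for those a large ratio was favoured in advance. CFAP74, CFAP126, CFAP141, CFAP221 and CFAP47 passed only through HPAF-II. CFAP161, CFAP52, CFAP299, SPEF2, CFAP95, CFAP77, DNAI1, HYDIN and TEKT4 passed only through PANC-1. In HPAF-II 28 were higher (40.6%, against 27.2%) and 15 lower (21.7%, against 25.2%). The median log2 ratio was 0.67 for the members and 0.08 for all genes, and the 3 and 3 libraries did not overlap in 48 of 69 members, against 63.7% of all genes. Of 15 inner arm genes 9 were at least 2-fold higher in HPAF-II and 2 lower, and of 4 outer arm genes 2 were higher and 2 lower. Of 9 central apparatus genes 5 were higher and 3 lower. Of 12 radial spoke genes 3 were higher and 1 lower, with a median log2 ratio of -0.12. Of 13 genes for proteins inside the doublets 3 were higher and 5 lower.

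RSPH1 differed most. It read 0.0819, 0.187 and 0.035 per 1000000 in PANC-1 and 16.8, 17.5 and 9.46 in HPAF-II, a 144-fold difference in means (log2 ratio 7.04). DNAH2, an inner arm heavy chain, read 0.0452, 0.0632 and 0.0321 in PANC-1 and 3.34, 3.73 and 2.76 in HPAF-II (5.85), and it did so with no overlap. CFAP221 and CFAP47, both of the central apparatus, were listed at 0 in the 3 PANC-1 control libraries and reached 0.313 to 0.734 and 0.303 to 0.378 in HPAF-II. CFAP126, a doublet protein, stood at 0.00848, 0.0172 and 0 against 0.962, 0.247 and 0.555 (log2 ratio 5.01, and 2.66 with 0.1 added in place of 0.01), and it overlaps SDHC.

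FOXJ1 was higher in HPAF-II, at 6.92, 6.25 and 10.7 against 2, 1.27 and 1.26, a 5.26-fold difference. RFX2 (0.48) and RFX3 (0.42) differed by less than 2-fold. The heavy chains DNAH5 (13.6-fold) and DNAH11 (19.8-fold) and the tether gene CFAP44 (12.6-fold) were also higher in HPAF-II in every library. Per 1000 bases of exon, RSPH1 reached 4.88 and FOXJ1 3.01 per 1000000 in HPAF-II, against 0.0339 and 0.573 in PANC-1. MDH1B averaged 2.98-fold higher in HPAF-II, but its libraries overlapped.

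Other axoneme genes were lower in HPAF-II or listed at 0 there. The intermediate chain DNAI1 read 1.34, 0.801 and 1.34 in PANC-1 and 0.106, 0 and 0 in HPAF-II (log2 ratio -4.69). CFAP46, of the central apparatus, read 1.31, 1.33 and 1.61 against 0.097, 0.0598 and 0.0807 (-4.00). CFAP161, CFAP299 and CFAP95 were at 0.0706 to 0.326 in PANC-1 and listed at 0 in all 3 HPAF-II libraries, as were SPEF2, CFAP77 and CFAP52. HYDIN was lower too, at 0.143 to 0.175 against 0, 0.016 and 0.00646, with a log2 ratio of -3.25 that became -1.25 with 0.1 added. DNAH14, the main DNAH gene of PANC-1, was 5.06-fold lower in HPAF-II and RSPH9 9.21-fold lower. In all, 12 members were at 0 in every HPAF-II library and 7 in every PANC-1 siCtrl library, and the shares over all genes were not counted. CFAP107 and TEKT1 were at 0 in both groups. DNAH9, DNAI2, TEKT3 and RSPH6A, also at 0 in HPAF-II, averaged only 0.666 to 8.93 normalized counts in PANC-1 siCtrl.

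**Figure D4:**
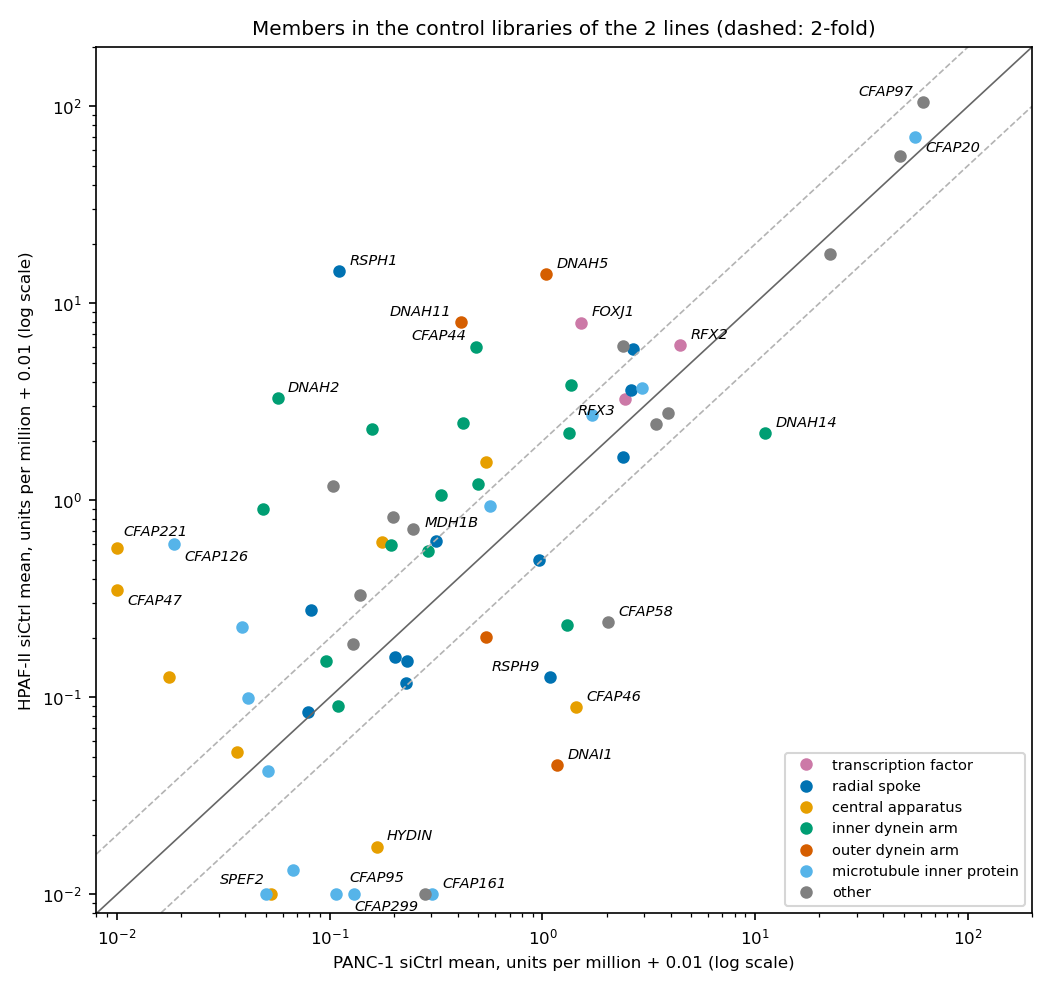
Mean level in HPAF-II siCtrl (y axis) against PANC-1 siCtrl (x axis) for 69 members, each as normalized counts per 1000000 of the library total plus 0.01 on log scales, coloured by place in the axoneme, with the solid line at equality and dashed lines at 2-fold. RSPH1, DNAH2 and DNAH5 lie far above the lines and DNAI1 and CFAP46 far below, and points at the edges are listed at 0 in 1 line.

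Of 10 multiciliated markers compared between the lines, 5 were at least 2-fold higher and 4 lower in HPAF-II (all genes: 27.2% and 25.2%). The summed level of the 13 multiciliated markers was 43.2 to 112 per 1000000 in HPAF-II, against 5.79 to 6.45 in PANC-1 siCtrl. Most of it was CAPS, a calcium-binding protein that other epithelia also make, at 17824 normalized counts, while SNTN was at 0 and C20orf85 averaged 29.6. Of 8 ductal and epithelial markers compared, 7 were at least 2-fold higher in HPAF-II and none lower, and all 4 mesenchymal markers were lower, with VIM at a log2 ratio of -10.01 and CDH2 listed at 0 in HPAF-II. The part of these markers in the difference was not tested.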

How the data were processed

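Poly(A) RNA of 12 libraries (3 each of PANC-1 siCtrl, siQKI and siRBFOX2 and of HPAF-II siCtrl) was sequenced by the authors, and groups and replicate numbers were taken from the sample labels. The submitters' processing notes name FastQC, STAR 2.7.5a, SAMtools, Picard and DESeq2 and the build hg38. The signal deposited for each gene is its count after the authors' division by a DESeq2 size factor, with factors estimated separately for the 9 PANC-1 and the 3 HPAF-II libraries. Every value was a whole multiple of a library step (within 0.01), but 82.1% to 84.8% of low values were multiples of 3 steps, so a step is not a read and no count model was used. The strand used in counting is not given in the sources used here.

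The members were found by symbol. The members, the gene lists and the rule for naming genes were chosen with earlier results of these data known. Genes with a mean of at least 10 over the 9 PANC-1 libraries were tested with limma 3.58.1 in R 4.3.3 (mean-variance trend, log2 of value + 1, Benjamini-Hochberg over 22544 genes), which was tested on simulated data. Log2 fold changes are therefore differences of group means on the log2(value + 1) scale. Folds and percents of control are ratios of group means with nothing added. For low genes the 2 measures can differ, even in direction (CFAP141 in siQKI: -1.65 and 1.21-fold). Named with values were members called in a knockdown, the 6 genes given by name in the rule, the 2 highest members of each family in PANC-1 siCtrl, the 5 largest ratios between the lines in each direction whose libraries did not overlap, and up to 3 rises and 3 falls of each list, and other genes were chosen after their values were seen. A gene that this rule named is not reported here. Places in the axoneme were assigned from general knowledge, and exon lengths came from GENCODE v29. Members' coordinates are those of the deposited tables (hg38) and promoter coordinates those of RefSeq. The lines were rescaled to 1000000 and compared without a test in 24673 genes. Alternatives were pseudocounts of 0.1 and 10 (0.001 and 0.1 for the lines), other filters, upper-quartile rescaling, unrescaled values for the lines, only the groups compared, no trend, the replicate number as a block, stricter call rules and each library left out. Libraries of 1 number did not deviate together (correlations of -0.0325 to 0.0235 over genes), so the numbers were not taken to pair them. p-values measure the spread between replicates that are described as biological.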

Additional observations from a re-analysis of the deposited data

How the results depend on the processing

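No call of a named member, of QKI or of RBFOX2 reversed under the alternatives run, and 22 of 42 calls of named members held in all of them. Calls of list genes and markers outside the rule were not followed through the alternatives. The losses given with single genes are mainly those with 1 library left out, and other settings cost some calls as well. In siQKI the call was lost in 8 of 16 alternatives for CFAP77 and in 7 of 17 for HYDIN. In siRBFOX2 it was lost in 7 of 17 for RSPH1, in 6 for DNAH3 and in 1 for DNAH1. The member counts stayed within 1.5 times under the pseudocounts, filters, upper-quartile rescaling and fits of only the groups compared. At an adjusted p under 0.01 the counts were 13 in siQKI, 5 in siRBFOX2 and 5 between the knockdowns. This count and those that follow describe how far the calls depend on the settings. They are not set against the shares of all genes under the same settings. Without the mean-variance trend siRBFOX2 kept 5 of its 13 calls (1 higher and 4 lower), and 7 of 8 calls between the knockdowns were higher in siQKI. With members that overlap another gene left out, an alternative chosen after seeing the data, the counts were 14 of 39 in siQKI, 8 in siRBFOX2 and 5 between the knockdowns. Leaving out 1 library gave 17 to 23 calls in siQKI, 9 to 14 in siRBFOX2 and 6 to 13 between the knockdowns, the highest without siRBFOX2 replicate 2. QKI fell by 2.29 to 2.40 and RBFOX2 by 2.76 to 3.00 on the log2 scale. With the replicate number as a block the counts were 19, 13 and 8, and CFAP77 and DNAI1 lost their calls in siQKI, but the numbers share no more than a label. Between the lines 36 to 47 members were 2-fold apart under the other settings and 44 to 48 with 1 library left out. Upper-quartile rescaling moved the median log2 ratio of all genes from 0.08 to -0.24 and that of the members from 0.67 to 0.36. The depth in fragments is unknown, and the median standard error was 0.38 for the members tested against 0.14 for all genes tested, so small changes of the low members were not detectable.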

Other observations

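Single genes of the neighbouring lists differed between the control libraries of the lines, and those named here were chosen after their values were seen. Among dynein assembly factors, DNAAF3 averaged 85.9 and ZMYND10 32.7 normalized counts in HPAF-II, with log2 ratios to PANC-1 of -3.25 and -2.93, while DNAAF11 was higher in HPAF-II (2.57). Of 20 assembly factors compared, 5 were at least 2-fold higher and 4 lower in HPAF-II, against 27.2% higher and 25.2% lower over all genes compared. The spoke gene ROPN1L (-4.18) and NME5 (-5.48) were lower in HPAF-II, and the doublet genes MNS1 (1.79), PIERCE1 (1.67) and PIERCE2 (1.79) were higher. These ratios were not tested.

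Of 56 transport and primary cilium genes, 7 were at least 2-fold higher and 6 lower in HPAF-II, against the same shares over all genes. BBS5, a BBSome subunit, read 602, 797 and 809 in the PANC-1 control libraries and was listed at 0 in HPAF-II. IFT27 averaged 2293 normalized counts in HPAF-II (log2 ratio -3.22), and IFT46 was higher there (2.99). RFX7 (1.46) and TP73 (2.03) were higher in HPAF-II as well.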
